A study of Mus musculus with 14 samples.

Results

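The imprinted growth genes described here are Dlk1, Igf2, H19, Peg3, Mest, Plagl1, Cdkn1c, Grb10, Ndn and Snrpn, 10 named genes. Their members on the array are the non-control probes that carry one of these gene names, which gave 19 probes of 41174. The testis RNA of C57BL/6 mice was hybridised to single-colour 60-base oligonucleotide arrays, 1 array per sample. The groups were 4 Glis3KO2 and 4 WT testis samples at 1 week of age, and 3 Glis3KO2 and 3 WT samples at 4 weeks. Glis3KO2 is the label for mice that lack Glis3, a Krüppel-like zinc finger transcription factor, and the labels do not describe the deleted segment. The mice had no treatment, and the pups stayed with their own mothers. The older mice are 4 weeks old by their sample labels, whereas the series text says 3 weeks. The labels do not state that the samples of a group are separate animals, so p-values measure only the spread between these samples, which may be technical.

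Imprinted genes are transcribed mainly or only from the copy inherited from one parent. Many of the paternally expressed ones promote growth before and shortly after birth, several maternally expressed ones restrain it, and a large group of them is switched down together as organs stop growing. In the testis of the young mouse, Igf2, Dlk1 and their companions are known mostly from Sertoli cells, Leydig cells and other supporting cells. The array probes read both parental copies together, so the values are total transcript and say nothing about the copy used.

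A level below is the log2 of the processed probe intensity minus the 75th percentile of all probes on the same array, so 0 is the 75th percentile and 1 unit is a doubling. Levels of different probes cannot be set against each other, because probes differ in brightness. A gene with several probes is represented by the one with the highest mean, and the others are given beside it. Differences were tested per probe with limma, and a probe counts as called where its p, adjusted over all probes tested by the method of Benjamini and Hochberg, is under 0.05. Of the 19 probes, 18 were well above background on all 14 arrays, no member spot was marked as non-uniform and none was saturated.

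The labels were checked on the Glis3 probe and on markers of testis cells. The Glis3 level at 1 week lay between -9.25 and -7.30 in Glis3KO2 testis, not well above background on any of the 4 arrays, and between -5.05 and -4.71 in WT testis, above background on all 4. This is at least 4.25-fold lower in Glis3KO2 (exact two-sided permutation p = 0.0286, the smallest that 4 against 4 arrays allow). With normexp background correction the log2 difference was -0.46 and did not pass (exact two-sided permutation p = 0.143). At 4 weeks the probe was not well above background on any array of either genotype (exact two-sided permutation p = 0.3, smallest possible 0.1), so it does not check the 4-week labels. Whether the probe lies in the deleted segment is not known. The arrays had 74.3% to 86.6% of their spots well above background. The 1-week WT arrays had 86.6%, 82.6%, 86.3% and 76.7%, and the 1-week Glis3KO2 arrays 76.5%, 78.5%, 74.3% and 74.4%. At 4 weeks the range over both genotypes was 75.3% to 78.6%. Whether this bears on the 1-week differences was not tested. All 14 Sertoli markers and all 10 adult Leydig markers were above background on every array. The 10 spermatid markers had a summed linear level, relative to the 75th percentile, of 0.224 to 0.574 in Glis3KO2 and 0.504 to 0.671 in WT testis at 1 week, against 58.1 to 158 in Glis3KO2 and 575 to 854 in WT testis at 4 weeks. The arrays of the 2 ages lay on different slides and were scanned on different days, so age and slide cannot be told apart. One 1-week Glis3KO2 array, replicate 4, was alone on its slide and on its scan day. It had the highest level of its group for 8 of the 10 genes. The 8 epididymal markers had a summed level of 1.99, 1.29, 2.13 and 2.81 on the 1-week Glis3KO2 arrays, all above the 0.832 to 1.03 of the 1-week WT arrays. In each 1-week group 4 of the 8 were well above background on no array. At 4 weeks the sum was lower in Glis3KO2, at 0.383, 0.393 and 0.488, against 1.435, 0.645 and 0.537 in WT testis. Replicates 1 and 4 of the 1-week Glis3KO2 group had stood apart in earlier results of these data. The counts at 1 week and with age were therefore also made without them. The part of epididymal RNA in the differences at either age was not tested.

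At 4 weeks 8 of the 10 genes were higher in Glis3KO2 than in WT testis. Dlk1 had the largest log2 difference, 3.46, followed by Mest (2.20), Peg3 (1.74), Plagl1 (1.71), Igf2 (1.70), Ndn (1.49), H19 (1.19) and Snrpn (1.03). For these 8 genes every Glis3KO2 array was above every WT array. Cdkn1c, an inhibitor of cell division, had a difference of -0.70 and Grb10, an adaptor that damps insulin and IGF receptors, one of 0.11, and neither was called. Over all 31378 probes tested 35.6% were called higher and 33.8% lower in Glis3KO2, and the groups did not overlap for 39.1% with Glis3KO2 higher and for 37.9% with Glis3KO2 lower. For Cdkn1c every Glis3KO2 array was below every WT array, and for Grb10 the groups overlapped. The median difference of the 10 genes was 1.60, against 0.05 over all probes tested. In bulk tissue a higher level can come from more cells of a type or from more RNA per cell, and these cannot be told apart.

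At 1 week none of the 10 genes passed the limma test between Glis3KO2 and WT testis, against 9.99% of 33710 probes called. At an unadjusted p under 0.05, 4 of the 10 passed, against 36.2% of all probes. Without Glis3KO2 replicates 1 and 4 the count was also 0 of 10, with differences from -0.63 for Peg3 to 0.50 for Snrpn, while that over all probes was 280 against 3367. Every Glis3KO2 array was above every WT array for 4 genes, Dlk1, Igf2, Ndn and Snrpn, against 13.3% of all probes. On the slide with 2 arrays of each genotype, their differences were 0.38, 0.55, 0.32 and 0.52 in that order. On the slide with 1 Glis3KO2 and 2 WT arrays, they were only 0.05, 0.18, 0.19 and 0.28. The median difference of the 10 genes over all 1-week arrays was 0.40, against -0.12 over all probes. Snrpn came nearest to the threshold (log2 difference 0.49, limma adjusted p = 0.0522), and it was called in 6 alternatives, among them median scaling (0.75, adjusted p = 0.0393), which also called Ndn (0.66, limma adjusted p = 0.0486).

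Between the ages, all 10 genes were lower at 4 weeks than at 1 week in both genotypes, with non-overlapping arrays. Over all probes 28.7% were called lower in Glis3KO2 and 51.7% in WT testis, and 32.6% in Glis3KO2 and 51% in WT testis were lower with no overlap. Without 1-week Glis3KO2 replicates 1 and 4, all 10 were still called lower with age in Glis3KO2. The median difference of the 10 genes, 4-week minus 1-week, was -2.80 in Glis3KO2 and -4.21 in WT, against -0.16 and -0.59 over all probes. The one change of direction was Cdkn1c in WT, which had a difference of 0.0056 when arrays were set equal on 32 somatic marker genes in place of the 75th percentile. The genotype comparisons and the age comparisons share arrays, and so are not independent of each other.

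**Figure D1:**
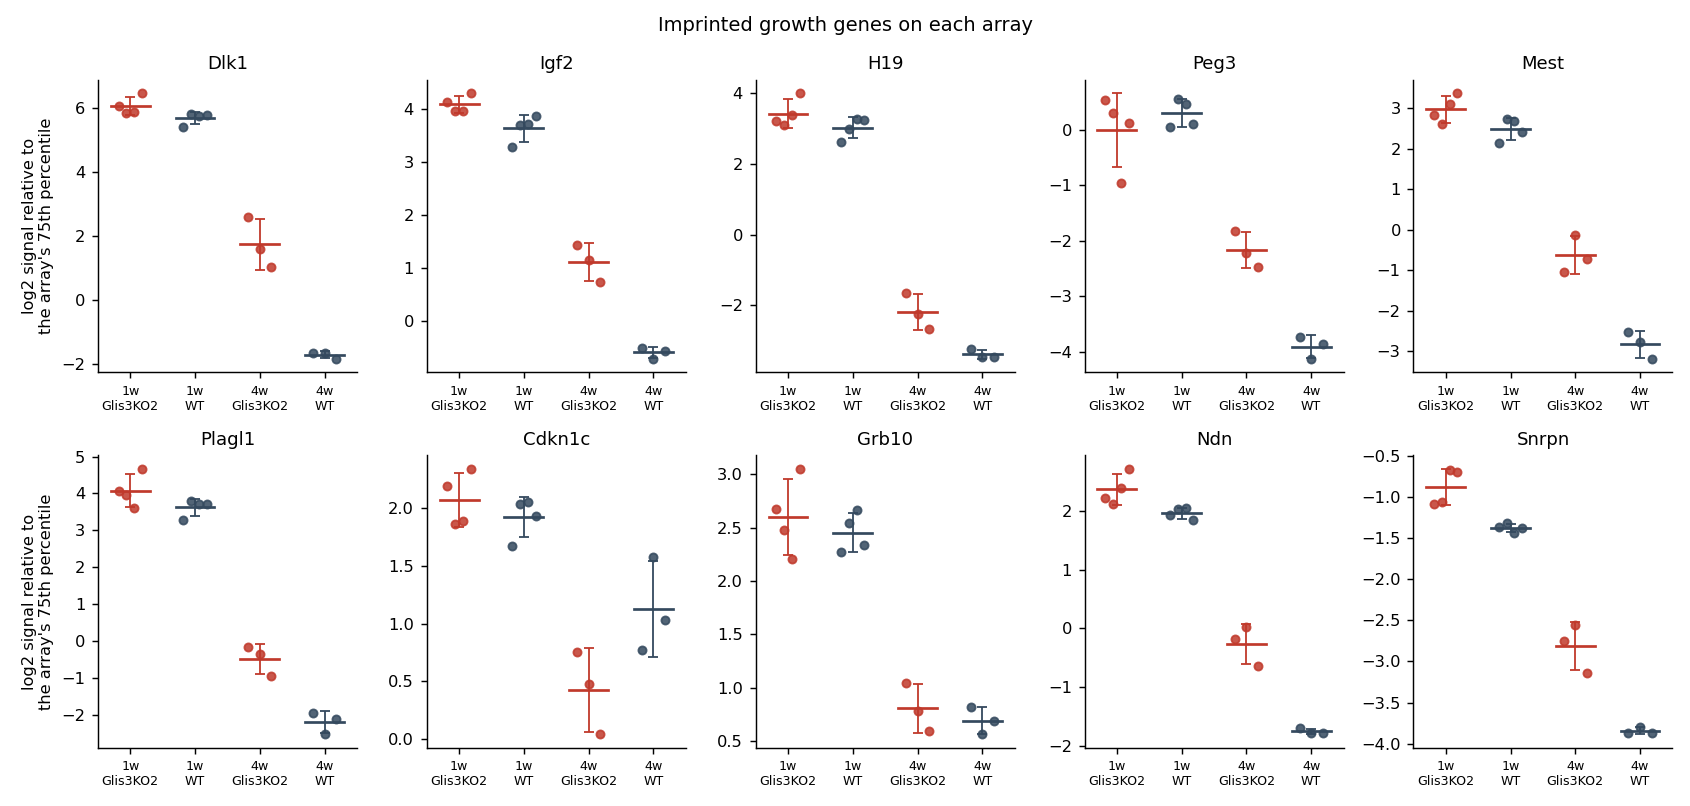
The level of each imprinted growth gene on each of the 14 arrays (vertical axis, log2 signal relative to the array's 75th percentile, each panel with its own range). Points are arrays, horizontal lines group means and bars ± SD for 1-week Glis3KO2 (n = 4), 1-week WT (n = 4), 4-week Glis3KO2 (n = 3) and 4-week WT (n = 3). At 4 weeks the Glis3KO2 arrays of 8 genes sit above the WT arrays, while those of Grb10 overlap and those of Cdkn1c sit below.

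Igf2 encodes the fetal insulin-like growth factor and is expressed from the paternal copy. H19, its neighbour on chromosome 7, is a long non-coding RNA expressed from the maternal copy, and in many tissues the pair shares enhancers. The brightest probes of the pair lie 74872 bases apart on the mm7 build, both on the minus strand. Both H19 probes are shown because H19 was higher in Glis3KO2 at 4 weeks and both probes read the same course. The first is at chr7:139003144-139003203 and the second at chr7:139003393-139003540, a span longer than the probe.
A_51_P142196: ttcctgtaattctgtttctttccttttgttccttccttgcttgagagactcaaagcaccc
A_52_P571350: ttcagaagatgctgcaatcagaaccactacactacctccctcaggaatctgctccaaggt

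The Igf2 level at 4 weeks was 1.44, 1.16 and 0.74 in Glis3KO2 against -0.51, -0.71 and -0.56 in WT testis. At 1 week it was 4.13, 3.95, 3.95 and 4.30 in Glis3KO2 against 3.27, 3.69, 3.71 and 3.86 in WT testis. The groups did not overlap at either age, and every 1-week array was above every 4-week array. Igf2 was 3.26-fold higher in Glis3KO2 at 4 weeks (log2 difference 1.70, SE 0.21, limma adjusted p = 0.000806) and not called at 1 week (0.45, SE 0.16, adjusted p = 0.0871). From the 1-week to the 4-week groups it was 7.84-fold lower in Glis3KO2 and 18.7-fold lower in WT. The genotype difference was 1.25 larger at 4 weeks than at 1 week (SE 0.26, limma adjusted p = 0.00174). The other Igf2 probe gave a 4-week difference of 1.70 as well (SE 0.21).

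The H19 level at 4 weeks was -1.66, -2.25 and -2.67 in Glis3KO2 against -3.24, -3.45 and -3.47 in WT testis. The 1-week level was 3.20, 3.09, 3.39 and 4.00 in Glis3KO2 against 2.61, 2.99, 3.27 and 3.23 in WT testis. The 4-week groups did not overlap and the 1-week groups did. H19 was 2.29-fold higher in Glis3KO2 at 4 weeks (log2 difference 1.19, SE 0.26, limma adjusted p = 0.00583), and its other probe gave 0.97 (adjusted p = 0.0118). The drop between the ages was the largest of the 10 genes in Glis3KO2, 49.0-fold, and 85.2-fold in WT testis, where 0.0285% of all probes had a more negative difference. The difference between the 2 genotype differences was 0.80 (SE 0.37, limma adjusted p = 0.0909) and was not called, although it passed in 4 of 28 alternatives: without 1-week Glis3KO2 replicate 4 (0.99, adjusted p = 0.0279), without 4-week Glis3KO2 replicate 3 (1.04, adjusted p = 0.0283), with quantile normalization (0.98, adjusted p = 0.0274) and with slide as a block (0.99, adjusted p = 0.0298).

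Dlk1, a membrane protein related to Notch ligands, is expressed from the paternal copy and is known in the testis from fetal and progenitor Leydig cells. The probe shown lies within the transcript on chromosome 12, at chr12:106981450-106981509 of mm7, plus strand, and is the dimmer of the 2 Dlk1 probes. It is shown because Dlk1 had the largest 4-week genotype difference of the 10 genes.
A_52_P177324: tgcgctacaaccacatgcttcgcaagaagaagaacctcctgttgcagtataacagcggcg

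The Dlk1 level at 4 weeks was 2.60, 1.58 and 1.03 in Glis3KO2 against -1.67, -1.66 and -1.85 in WT testis. All 3 Glis3KO2 arrays were far above the WT arrays, and the spread between them was wide (SD 0.80 in Glis3KO2, 0.11 in WT). At 1 week the level was 6.08, 5.85, 5.89 and 6.48 in Glis3KO2 against 5.43, 5.81, 5.77 and 5.79 in WT testis, which did not overlap but lay close together. The log2 difference at 4 weeks came to 3.46 with an SE of 0.38 (limma adjusted p = 0.000649). Of all probes, 0.414% had a larger one. The probe printed above gave 3.18 (SE 0.38, limma adjusted p = 0.000791). At 1 week the difference was 0.37 (SE 0.17, adjusted p = 0.154). In WT testis Dlk1 was 172-fold lower at 4 weeks than at 1 week, the second most negative difference of 35030 probes, and in Glis3KO2 testis 20.2-fold lower. The genotype difference grew by 3.09 between the ages (SE 0.41, limma adjusted p = 0.000122).

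Plagl1 and Peg3 are zinc finger transcription factors expressed from the paternal copy, and Plagl1 is known as a regulator of other imprinted genes, Igf2, H19 and Cdkn1c among them. The Plagl1 level at 4 weeks was -0.16, -0.35 and -0.93 in Glis3KO2 against -1.93, -2.52 and -2.10 in WT testis. The same probe read at 1 week 4.07, 3.95, 3.60 and 4.67 in Glis3KO2 against 3.28, 3.79, 3.71 and 3.72 in WT testis. The 4-week groups stood apart and the 1-week groups overlapped. On this probe Plagl1 was 3.27-fold higher in Glis3KO2 at 4 weeks (log2 difference 1.71, SE 0.26, limma adjusted p = 0.0014), and the age drop was 23.4-fold in Glis3KO2 and 56.0-fold in WT. The other Plagl1 probe, which lies upstream on the same strand, gave a 4-week difference of only 0.31 (SE 0.15, limma adjusted p = 0.1), although it was also lower at 4 weeks than at 1 week, 7.33-fold in Glis3KO2 and 7.45-fold in WT. The 2 probes therefore disagree on the size of the genotype difference at 4 weeks. On the brighter probe that difference was 1.26 larger than at 1 week (SE 0.37, limma adjusted p = 0.0122), and the call was lost with the mean of both probes (0.64, adjusted p = 0.109) and with median scaling (0.92, adjusted p = 0.0773).

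Peg3 is shown by its brightest probe, at chr7:6266913-6266972 of mm7, minus strand, because it is the one gene of the 8 whose 1-week difference was below 0.
A_51_P206037: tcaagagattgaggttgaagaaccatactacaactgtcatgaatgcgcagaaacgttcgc

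The Peg3 level at 4 weeks was -1.83, -2.21 and -2.46 in Glis3KO2 against -3.73, -4.12 and -3.87 in WT testis. At 1 week it was 0.54, 0.29, -0.96 and 0.12 in Glis3KO2 against 0.05, 0.55, 0.46 and 0.10 in WT testis. The 4-week groups did not overlap. At 1 week the groups overlapped, and the low value of Glis3KO2 replicate 3 set the sign. The 1-week difference of -0.29 (SE 0.32) was not called by limma (adjusted p = 0.503), and without that array it was 0.02. At 4 weeks Peg3 was 3.33-fold higher in Glis3KO2 (1.74, SE 0.21, limma adjusted p = 0.000791), and its second probe gave 1.37 (SE 0.20, adjusted p = 0.00128). The drop with age was 4.49-fold in Glis3KO2 and 18.3-fold in WT. The genotype difference was 2.03 larger at 4 weeks than at 1 week (SE 0.43, limma adjusted p = 0.00184). The dimmest Peg3 probe was not well above background on any 4-week array and on 1 of 4 Glis3KO2 and 4 of 4 WT arrays at 1 week, where it was not called (-0.87, limma adjusted p = 0.23).

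Mest encodes an enzyme of the alpha/beta hydrolase family that is expressed from the paternal copy and marks growing mesoderm. Its level at 4 weeks was -1.04, -0.12 and -0.73 in Glis3KO2 against -2.53, -2.77 and -3.19 in WT testis. The 1-week level was 2.83, 2.60, 3.10 and 3.38 in Glis3KO2 against 2.14, 2.74, 2.69 and 2.41 in WT testis. As with Plagl1, the genotypes separated at 4 weeks and overlapped at 1 week. Mest was 4.59-fold higher in Glis3KO2 at 4 weeks (log2 difference 2.20, SE 0.28, limma adjusted p = 0.000918). It was 12.2-fold lower at 4 weeks than at 1 week in Glis3KO2 and 40.1-fold lower in WT. The genotype difference grew by 1.72 (SE 0.36, limma adjusted p = 0.00184).

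Ndn and Snrpn belong to the cluster on mouse chromosome 7 that corresponds to the human Prader-Willi region, and both are expressed from the paternal copy. Ndn encodes necdin, a MAGE-family protein that slows cell division, and Snrpn a core protein of the splicing machinery found mostly in brain. Their probes are shown because Snrpn has a close relative elsewhere in the genome. The Ndn probe is at chr7:58098778-58098837, plus strand, and the Snrpn probes at chr7:55735092-55735151 and chr7:55735109-55735168, minus strand, all on mm7. Capitals mark the 31 bases that the 2 Snrpn probes share.
A_52_P451644, Ndn: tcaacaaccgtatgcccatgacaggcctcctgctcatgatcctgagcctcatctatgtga
A_52_P354390, Snrpn: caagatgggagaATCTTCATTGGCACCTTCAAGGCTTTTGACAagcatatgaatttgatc
A_51_P168862, Snrpn: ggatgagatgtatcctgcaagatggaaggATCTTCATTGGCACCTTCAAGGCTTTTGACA

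Over the 43 bases where the Snrpn probes overlap, they differ by G9A and A12G, counted from 1 at the 5′ end of A_52_P354390, whose base comes first. The Ndn level at 4 weeks was -0.19, 0.03 and -0.64 in Glis3KO2 against -1.70, -1.79 and -1.79 in WT testis. At 1 week it was 2.22, 2.12, 2.40 and 2.72 in Glis3KO2 against 1.92, 2.03, 2.05 and 1.84 in WT testis. No Ndn array of Glis3KO2 fell within the WT range at either age. Ndn had a log2 difference of 1.49 at 4 weeks (SE 0.20, limma adjusted p = 0.000988) and of 0.41 at 1 week (SE 0.15, adjusted p = 0.0969), and the difference of the differences was 1.09 (SE 0.25, adjusted p = 0.00301). Ndn was 6.19-fold lower at 4 weeks than at 1 week in Glis3KO2 and 13.1-fold lower in WT.

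The Snrpn level at 4 weeks was -2.75, -2.56 and -3.14 in Glis3KO2 against -3.87, -3.79 and -3.87 in WT testis. Its 1-week level was -1.08, -1.07, -0.68 and -0.70 in Glis3KO2 against -1.37, -1.32, -1.44 and -1.38 in WT testis. Here too the genotypes were apart at both ages, and the WT arrays lay close together. Snrpn was 2.04-fold higher in Glis3KO2 at 4 weeks (log2 difference 1.03, SE 0.18, limma adjusted p = 0.00246). The second probe gave 0.90 (SE 0.20, adjusted p = 0.0058). The drop with age was 3.82-fold in Glis3KO2 and 5.54-fold in WT, and the genotype difference did not pass as larger at 4 weeks than at 1 week (0.54, SE 0.22, limma adjusted p = 0.0587). It passed in 5 of 28 alternatives, among them those without 1-week Glis3KO2 replicate 3 (0.60), without 1-week Glis3KO2 replicate 4 (0.60) and without 4-week Glis3KO2 replicate 3 (0.70, adjusted p = 0.00839). Snrpb, which encodes the near-identical ubiquitous protein, has its own probe, and it had a 4-week difference of 0.54 (limma adjusted p = 0.0106) and a WT age difference of -1.42. Of the probes named for other genes, 0 share a run of 20 bases with a probe of the 10 genes. Only probe sequences were compared, so whether the Snrpn probes also read Snrpb transcript was not tested.

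Cdkn1c encodes p57, an inhibitor of cyclin-dependent kinases that restrains growth and is expressed from the maternal copy. Its level at 4 weeks was 0.76, 0.48 and 0.04 in Glis3KO2 against 0.77, 1.58 and 1.03 in WT testis. At 1 week it was 2.18, 1.86, 1.88 and 2.34 in Glis3KO2 against 1.67, 2.03, 2.05 and 1.92 in WT testis. The 4-week Glis3KO2 arrays lay below the WT arrays, though the highest Glis3KO2 and the lowest WT array nearly met, and at 1 week the groups overlapped. The 4-week difference missed the threshold (log2 difference -0.70, SE 0.27, limma adjusted p = 0.0547). It passed in 7 of the 19 alternatives run. It was -0.28 on the slide with 2 arrays of each genotype and -1.54 on the slide with 1 of each. Cdkn1c was 3.12-fold lower at 4 weeks than at 1 week in Glis3KO2 and 1.73-fold lower in WT. It was the one gene of the 10 whose genotype difference was called lower at 4 weeks than at 1 week (-0.85, SE 0.31, limma adjusted p = 0.0367). That call was lost when any of 8 of the 14 arrays was left out, with a difference of -0.62 and an adjusted p of 0.103 without 4-week WT replicate 2. Without 1-week Glis3KO2 replicates 1 and 4 together it was -0.65 (limma adjusted p = 0.138).

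**Figure D2:**
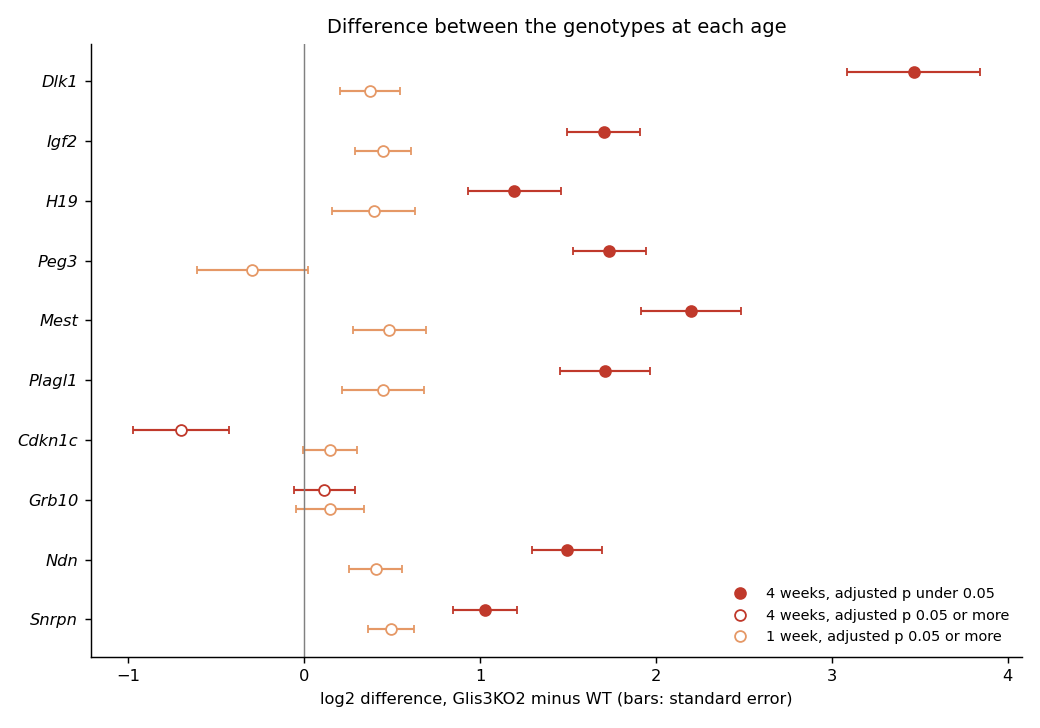
The log2 difference, Glis3KO2 minus WT, of each gene's brightest probe at 4 weeks and at 1 week (horizontal axis), with limma standard errors as bars. Filled points passed an adjusted p of 0.05, as 8 of 10 did at 4 weeks and none at 1 week. Dlk1 at 4 weeks lies farthest right at 3.46, Cdkn1c is left of 0 at that age, and Grb10 is right of 0 here but at -0.28 on somatic marker scaling.

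Grb10 is expressed from the maternal copy in most tissues and from the paternal copy in neurons, and the 3 probes of this gene did not behave alike. The brightest lies at the 3′ side of the gene on chromosome 11, and the probe A_52_P40363 at chr11:11922579-11922638 of mm7, 39550 bases toward the 5′ side. The probe A_51_P187151 lies between them at chr11:11885585-11886233, spanning more bases than its length. All are on the minus strand, and the 2 dimmer probes are shown because they gave opposite genotype differences.
A_52_P40363: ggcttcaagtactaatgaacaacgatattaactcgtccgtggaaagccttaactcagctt
A_51_P187151: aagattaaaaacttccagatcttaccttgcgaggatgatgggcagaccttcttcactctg

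The brightest Grb10 probe at 4 weeks had a level of 1.05, 0.78 and 0.59 in Glis3KO2 against 0.82, 0.56 and 0.69 in WT testis. At 1 week it had 2.68, 2.48, 2.20 and 3.05 in Glis3KO2 against 2.27, 2.54, 2.66 and 2.34 in WT testis. The genotypes overlapped at both ages, and the 4-week difference was 0.11 (SE 0.17, limma adjusted p = 0.576). Its sign turned under scaling on somatic marker genes (-0.28). It was 3.47-fold lower at 4 weeks than at 1 week in Glis3KO2 and 3.39-fold lower in WT.

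On A_52_P40363 the 4-week level was -2.79, -3.11 and -3.58 in Glis3KO2 against -4.55, -4.28 and -4.75 in WT testis. All Glis3KO2 arrays were higher (log2 difference 1.37, SE 0.24, limma adjusted p = 0.00233), and the drop with age was 4.93-fold in Glis3KO2 and 15.0-fold in WT, the course of most of the other genes. On A_51_P187151 the 4-week level was -4.34, -4.94 and -4.50 in Glis3KO2 against -3.17, -2.90 and -2.98 in WT testis. All Glis3KO2 arrays were lower there (-1.58, SE 0.20, limma adjusted p = 0.00084). This probe was also the one member probe that was higher at 4 weeks than at 1 week in WT testis (0.31, SE 0.11, adjusted p = 0.03), while it was lower in Glis3KO2 (-0.80, SE 0.24, adjusted p = 0.0228). The genotype difference changed between the ages by 1.60 on A_52_P40363 (limma adjusted p = 0.00931) and by -1.12 on A_51_P187151 (adjusted p = 0.00372). Which transcripts each probe reads was not tested.

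**Figure D3:**
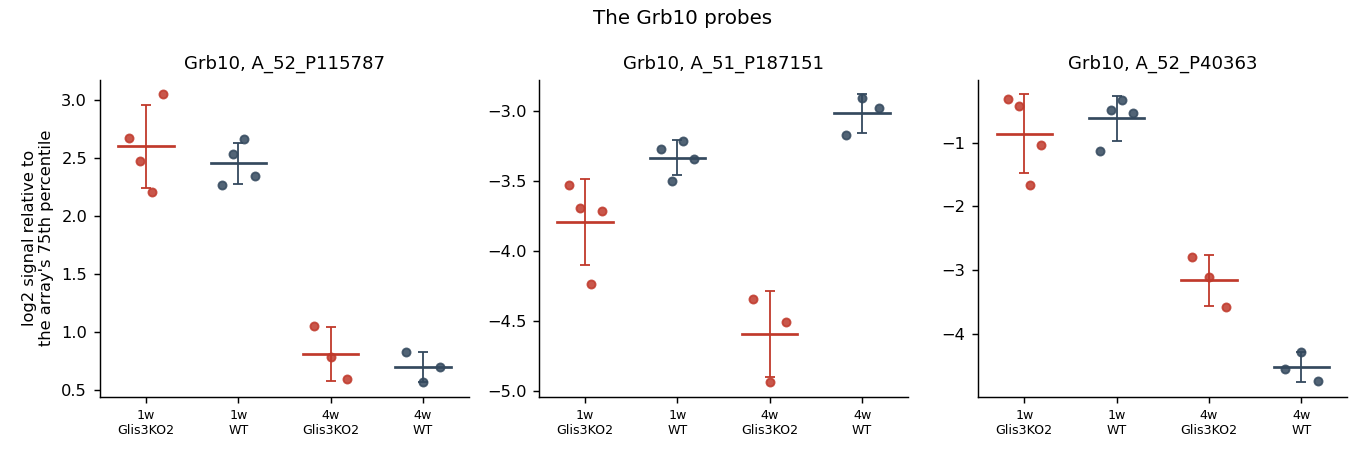
The 3 Grb10 probes on the 14 arrays (vertical axis, log2 signal relative to the array's 75th percentile, each panel with its own range), with points as arrays, lines as group means and bars as ± SD. At 4 weeks the Glis3KO2 arrays overlap WT on the brightest probe, lie below WT on A_51_P187151 and lie above WT on A_52_P40363.

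The size of the age difference was compared between the genotypes through the same interaction. It was called for 7 of the 10 genes, 6 with a smaller drop in Glis3KO2 (Dlk1, Peg3, Mest, Plagl1, Igf2 and Ndn) and 1, Cdkn1c, with a larger one. Over 35143 probes the share called was 31.1% in the first direction and 20.8% in the second, and the median was 1.17 for the 10 genes against 0.29 for all probes. H19, Snrpn and Grb10 were not called. At 4 weeks Glis3KO2 replicate 3 had the lowest level of its group for 9 of the 10 genes and replicate 1 the highest for 7. The order of these arrays was not counted over all probes, so it cannot be read as particular to the 10 genes.

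**Figure D4:**
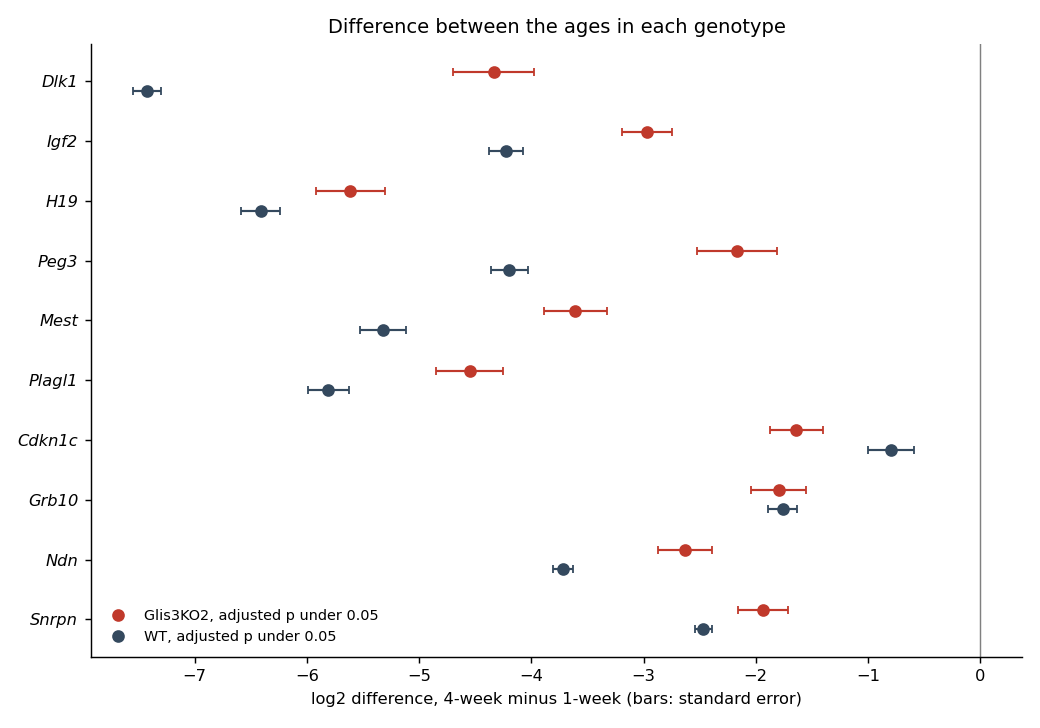
The log2 difference, 4-week minus 1-week, of each gene in Glis3KO2 and in WT testis (horizontal axis), with limma standard errors as bars. All 20 points lie left of 0 and are filled, as all passed an adjusted p of 0.05 at the 75th percentile scaling, while on somatic marker genes the WT value of Cdkn1c is 0.0056. The WT points lie farther left for every gene but Cdkn1c and Grb10.

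Markers of several supporting cell types were higher with these genes at 4 weeks, whereas those of adult Leydig cells and of fibroblasts and matrix were mixed. Over all probes 35.6% were called higher and 33.8% lower in Glis3KO2. Of 14 Sertoli markers 12 were higher and 0 lower in Glis3KO2, with a median difference of 2.11 and a summed linear level of 321 to 430 in Glis3KO2 against 95.5 to 108 in WT testis. Among them were Clu (2.09), which encodes clusterin, and Dhh (2.33), which encodes desert hedgehog. Of 10 fetal and progenitor Leydig markers 7 were higher and 1 lower, with a median of 1.74 and a summed level of 10.1 to 14.4 in Glis3KO2 against 3.75 to 4.79 in WT testis. Of 10 adult Leydig markers 3 were higher and 4 lower (median -0.67, summed level 12.6 to 34.1 in Glis3KO2 against 34.1 to 43.4 in WT testis), among them Insl3 (-0.75, not called) and Hsd3b1 (-0.59, not called). Of 8 peritubular markers 6 were higher and 1 lower (median 1.26, summed level 110 to 183 in Glis3KO2 against 63.5 to 67 in WT testis). Of 8 macrophage markers 7 were higher (median 1.11, summed level 27.2 to 39.9 in Glis3KO2 against 12.8 to 17.1 in WT testis). Of 8 endothelial markers 4 were higher (median 0.77), and of 8 fibroblast and matrix markers 4 were higher and 2 lower (median 0.39). All 10 spermatocyte and all 10 spermatid markers were lower (medians -1.59 and -2.99), with a summed spermatocyte level of 134 to 240 in Glis3KO2 against 332 to 368 in WT testis. Of 9 spermatogonial markers 4 were higher and 1 lower (median 0.48).

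Over all probes 9.99% were called between the genotypes at 1 week, 1091 of 33710 higher and 2276 lower in Glis3KO2. With age 51.7% in WT and 28.7% in Glis3KO2 testis were called lower. Called higher with age were 10476 of 35030 in WT and 7031 of 32188 in Glis3KO2. At 1 week 5 of 14 Sertoli, 5 of 10 adult Leydig and 3 of 8 macrophage markers were higher in Glis3KO2 (medians 0.40, 0.46 and 0.67). So were 1 of 10 fetal and progenitor Leydig and 1 of 8 endothelial markers (0.14 and 0.19). Of the peritubular and of the fibroblast and matrix markers, 0 of 8 each were called. Lower were 6 of 9 spermatogonial, 3 of 10 spermatocyte and 2 of 6 tested spermatid markers, with 1 spermatocyte marker higher. With age in WT testis the markers called lower were 12 of 14 Sertoli (median -1.89), 8 of 10 fetal and progenitor Leydig (-2.63), 5 of 10 adult Leydig (-0.54), 8 of 8 peritubular (-1.54), 7 of 8 endothelial (-1.77), 7 of 8 fibroblast and matrix (-2.51), 1 of 8 macrophage (0.07) and 7 of 9 spermatogonial (-1.83). All 10 spermatocyte and all 10 spermatid markers were higher. So were 2 Sertoli and 2 adult Leydig markers. The fetal and progenitor Leydig, fibroblast and matrix, macrophage and spermatogonial lists each had 1 marker called higher. With age in Glis3KO2 testis 5 of 14 Sertoli markers were lower and 5 higher (median 0.14), while 6 of 9 fetal and progenitor Leydig (-1.28), 6 of 10 adult Leydig (-1.82), 4 of 8 peritubular (-0.90), 7 of 8 endothelial (-1.16), 7 of 8 fibroblast and matrix (-2.74) and 1 of 8 macrophage markers (0.51) were lower, and the 9 spermatogonial markers had a median of -0.02. In the same comparison 9 of 10 spermatocyte and all 10 spermatid markers were higher. The adult Leydig, fibroblast and matrix, and macrophage lists each had 1 marker called higher. The part of these shifts in the differences of the imprinted genes was not tested.

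The same 4-week comparison was made with arrays set equal at the median of 32 Sertoli, adult Leydig and peritubular markers in place of the 75th percentile. This sets 1 pooled median equal and does not set each cell type equal. At the 75th percentile scaling the median differences were 2.11 for Sertoli, 1.26 for peritubular and -0.67 for adult Leydig markers. The part of cell makeup in the differences was therefore not tested. On the somatic scaling the median of all probes moved to -0.34, against 0.05 before. All 8 genes remained called higher in Glis3KO2, with log2 differences of 3.07 for Dlk1, 1.80 for Mest, 1.34 for Peg3, 1.31 for Plagl1, 1.31 for Igf2, 1.10 for Ndn, 0.80 for H19 and 0.63 for Snrpn. Cdkn1c was then called lower (-1.10, limma adjusted p = 0.0121). Within slides the 8 genes were higher in Glis3KO2 both on the slide with 2 arrays of each genotype, from 1.21 for Snrpn to 3.85 for Dlk1, and on the slide with 1 of each, from 0.66 for Snrpn to 2.69 for Dlk1.

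**Figure D5:**
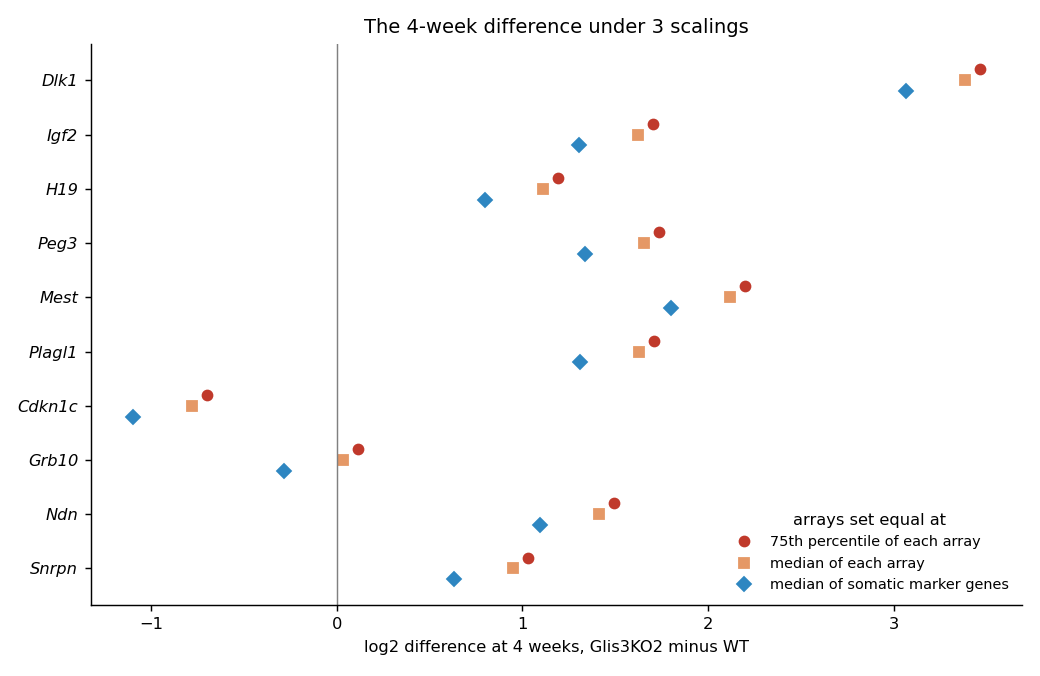
The 4-week log2 difference, Glis3KO2 minus WT (horizontal axis), of each gene with arrays set equal at their 75th percentile, at their median, or at the median of 32 somatic marker genes. The 8 called genes stay right of 0 under all 3, Cdkn1c stays left of 0, and Grb10 changes side.

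Of 57 other imprinted genes 53 were on the array, and 44 were tested at 4 weeks. In Glis3KO2, 21 were higher and 12 lower, beside the 35.6% and 33.8% of all probes, and their median difference was 0.59 against 0.05. Meg3, the maternally expressed non-coding RNA next to Dlk1, had a level of 1.61 to 2.84 in Glis3KO2 and -0.32 to 0.33 in WT testis, a log2 difference of 2.30 (SE 0.33, limma adjusted p = 0.00127). Ins2, the insulin gene beside Igf2, had a level of -2.11 to -0.46 in Glis3KO2 and -3.97 to -3.58 in WT testis (2.56, limma adjusted p = 0.00165). Other genes of these loci, named after their values were seen, went in both directions. Of the non-coding RNAs of the Dlk1 domain, Rian was higher in Glis3KO2 (1.04, limma adjusted p = 0.0227) and Mirg lower (-0.80, adjusted p = 0.0345). On the Igf2 side of chromosome 7, Osbpl5 (1.89), Cd81 (1.80) and Phlda2 (1.08) were called higher, and Kcnq1 (-1.22) and Kcnq1ot1 (-0.96) lower. Ascl2, near Igf2, was not called (-0.0004, limma adjusted p = 0.999). Dcn, which encodes the matrix proteoglycan decorin, had a difference of 2.55 and Impact, a regulator of translation, one of 2.16. Airn, the non-coding RNA of the Igf2r locus, was not well above background on the 4-week WT arrays and was at least 1.80-fold higher in Glis3KO2 (limma adjusted p = 0.000866). On the other side were Asb4 (-2.37), Zdbf2 (-2.31) and the transporter gene Slc22a18 (-2.05), and all 3 were higher at 4 weeks than at 1 week in WT testis (by 6.38, 4.21 and 5.02). At 1 week 1 of 49 tested was called higher and 1 lower, beside 9.99% of all probes called. The lower one was Dio3, which encodes the deiodinase that inactivates thyroid hormone and lies in the Dlk1 domain. Its level was -3.04 to -2.75 in 1-week Glis3KO2 against -2.02 to -1.22 in 1-week WT testis (-1.20, SE 0.19, limma adjusted p = 0.0152). At 4 weeks Dio3 was higher in Glis3KO2, by 1.87.

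IGF signalling genes were examined because Igf2 acts through the IGF1 and insulin receptors. Of 18 tested at 4 weeks 9 were higher and 4 lower in Glis3KO2, with a median of 0.72. Over all probes 35.6% were called higher and 33.8% lower, with a median of 0.05. The receptor gene Igf1r had a level of -0.36 to 0.60 in Glis3KO2 and -1.67 to -1.29 in WT testis (log2 difference 1.66, limma adjusted p = 0.00168), and the insulin receptor gene Insr had a difference of 1.75. Irs1, which encodes the adaptor downstream of both, had 1.81. Among the secreted binding proteins Igfbp3 had by far the largest difference, with a level of 0.67 to 1.82 in Glis3KO2 against -4.12 to -3.36 in WT testis (5.01, SE 0.33, limma adjusted p = 0.00042), and Igfbp1 (2.23), Igfbp6 (1.57) and Igfbp7 (1.46) were also higher. Igf2bp3, which encodes a protein that binds Igf2 mRNA, was lower (-2.30). At 1 week its relative Igf2bp1 was lower in Glis3KO2 (-1.90, SE 0.38, limma adjusted p = 0.0294). Of the 17 tested then 2 were higher and 1 lower, beside 9.99% of all probes called. Igf2r, the receptor that clears IGF2 and itself an imprinted gene, was named after its value was seen, with a 4-week difference of 1.11 (limma adjusted p = 0.00574).

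A further list held 13 genes outside the 10 that are known for a decline during early growth. In WT testis 9 were lower and 2 higher at 4 weeks than at 1 week, with a median of -1.38. Over all probes 51.7% were called lower and 10476 of 35030 higher, with a median of -0.59. Gpc3, the glypican whose loss causes overgrowth, had the largest drop (-4.88), followed by Mycn (-3.87), the growth factor genes Mdk (-3.69) and Ptn (-3.17), Igf2bp2 (-2.26) and E2f3 (-1.87). In Glis3KO2 testis 9 were lower and 0 higher (median -1.11), with Gpc3 at -2.59 and Mdk at -4.63. Over all probes 28.7% were called lower there and 7031 of 32188 higher, with a median of -0.16. Between the genotypes at 4 weeks 6 were higher and 6 lower in Glis3KO2 (median 0.08), with Gpc3 higher by 2.57 and Mdk not called (0.08). The shares over all probes were 35.6% higher and 33.8% lower.

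The courses most like those of Igf2, H19 and Dlk1 were sought among 22560 probes of other named genes, by the root mean square distance between the 4 group means after centring each probe on their mean. Nearest to Igf2 were Arhgef17 (distance 0.015), Cbfa2t3 (0.061) and Mmp2 (0.064). The nearest of the 10 genes was Ndn at 0.23. Nearest to Dlk1 were Hsd17b1 (0.30), Arhgef4 (0.39) and Serpine2 (0.41), and nearest to H19 were Adcyap1r1 (0.41), Agtr2 (0.54) and Sel1l3 (0.56). Of the 10 genes the nearest to both was Plagl1, at 0.71 from Dlk1 and 0.46 from H19. Plagl1 was thus nearer to H19 than Agtr2 and Sel1l3 were. These distances rest on 4 group means of the same 14 arrays and describe likeness only.

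RefSeq promoter windows on the GRCm38.p6 build, 250 bases before to 50 after a transcript start, were found for 8 of the 10 genes, 17 windows in all. They were searched on both strands for TGGGGGGT, the core of the site that GLIS proteins bind, which was in 1 of the 17 windows and in 1.53% of 32851 windows of all genes. That window belongs to an Igf2 start on the minus strand. Its 250 bases before the start, at chr7:142657497-142657746, are shown with the core in capitals because it is the one match among the 8 genes.
Igf2, upstream of the start: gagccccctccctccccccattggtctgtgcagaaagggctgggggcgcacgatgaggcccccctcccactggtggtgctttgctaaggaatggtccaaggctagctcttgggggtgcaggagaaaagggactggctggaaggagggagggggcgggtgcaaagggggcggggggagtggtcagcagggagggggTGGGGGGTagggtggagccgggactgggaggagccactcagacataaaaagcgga

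A match of letters is a description and not a binding site, and the data hold no measurement of binding.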

How the data were processed

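Testis RNA was labelled with Cy3 and hybridised to 14 single-colour Agilent arrays, per the labels' protocols. The authors extracted spot intensities with Agilent Feature Extraction 9.5, per the submitters' processing notes, and the deposited processed intensity is background-subtracted and detrended within each array, per the file headers, with no scaling between arrays. The authors' deposited series table holds the same intensities. Probe positions are those of the mm7 annotation in the files.

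Here spots marked as non-uniform were removed and repeated spots of a probe averaged. The log2 of the deposited intensities was taken, and each array's 75th percentile over non-control probes was subtracted. Symbols of genes outside the 10 came from RefSeq, through the accession for 22951 probes, the symbol for 6659 and a synonym for 3109, and the file's name was kept for 8455. Probes were tested where at least 3 arrays of a group in the comparison were well above background. limma 3.58.1 in R 4.3.3 fitted each comparison on its own groups, and the interaction on all 14 arrays, with Benjamini-Hochberg adjustment. The number of arrays limits the precision. The procedure was tested on simulated data. A bound for a probe below background sets the brighter group's mean against the dim group's mean of, per array, the lowest signal among probes well above background or the probe's own, whichever is higher.

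The 10 genes, the lists and the markers were chosen with earlier results of these data known. Named outside the 10 are genes of the imprinted and IGF lists called between genotypes with an absolute log2 difference of at least 1 (at most 8 per list and comparison), up to 6 juvenile growth genes called with age in WT, the 3 courses nearest to Igf2, H19 and Dlk1, 2 markers at most per cell type by mean signal over the 4 groups, and Glis3. Same-numbered samples did not deviate together in every pair, so replicate numbers were not used as pairs. Alternatives changed the scaling, background correction, filter, probe summary, moderation, slide, replicate block and arrays. Leaving out 1-week Glis3KO2 replicates 1 and 4 was chosen after seeing the data.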

Additional observations from a re-analysis of the deposited data

Results flagged for a closer look

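In the 1-week WT group, 1 array lay apart from the other 3 by Dixon's criterion for 2 of the 38 probe and group combinations with 4 arrays, where chance gives about 1 in 20. Both were WT replicate 1, with a level of 5.43 on the brighter Dlk1 probe and of 3.28 on the brighter Plagl1 probe, each the lowest of its group. That array had the lowest level of its group for 8 of the 10 genes.

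The genotype difference, Glis3KO2 minus WT, was called as different between the 2 ages for 7 of the 10 genes by the limma interaction. Over all probes 31.1% were called higher and 20.8% lower in it. The call held in 26 of 28 alternatives for Plagl1 and in 16 of 28 for Cdkn1c. The 4-week difference minus the 1-week difference was 3.09 for Dlk1, 2.03 for Peg3, 1.72 for Mest, 1.26 for Plagl1, 1.25 for Igf2, 1.09 for Ndn and -0.85 for Cdkn1c.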

How the results depend on the processing

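The 8 genes called higher in Glis3KO2 at 4 weeks kept direction and call in every alternative run with a test, and their direction within each slide, and so did all age differences in Glis3KO2 and those in WT except Cdkn1c (0.0056 on somatic marker scaling). Replicate numbers did not pair the samples, since the deviations of same-numbered Glis3KO2 and WT samples correlated from -0.165 to 0.136 at 1 week and from -0.283 to 0.126 at 4 weeks, and not every sample correlated best with its own number. With the replicate block the calls were 587 against 3367 at 1 week, 20427 against 21767 at 4 weeks and 16894 against 18245 in the interaction, with 0, 8 and 6 of the 10 genes called, and the lost gene was Cdkn1c (adjusted p = 0.0733).

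Counts of probes called at 1 week were 5220 with median scaling, 1498 with no filter, 1955 with the mean of a gene's probes, 5816 in 1 fit of all arrays, 5517 with an intensity trend, 680 with slide as a block, 280 without Glis3KO2 replicates 1 and 4, and 500 to 5255 with single arrays left out. Of the 10 genes, 2 were called with median scaling, 1 each with quantile normalization, the strict filter, 1 fit and the trend, and 0 to 1 with an array left out. Counts fell with fewer features tested, to 13959 with the mean of probes at 4 weeks, 18669 with that mean and 18973 with the brightest probe against 28599 in WT with age, and 11334 and 12003 in the interaction. In Glis3KO2 with age the count was 10726 without replicates 1 and 4, against 16282. With single arrays left out the 4-week count was 18694 to 23869 (8 to 9 genes), that in WT with age 27183 to 29759 (10), in Glis3KO2 with age 13730 to 16885 (10) and in the interaction 15852 to 20204 (6 to 8).

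Higher and lower calls were 1091 and 2276 at 1 week, against 3697 and 1523 with median, 1836 and 1780 with quantile, 1221 and 1513 with normexp and 231 and 4537 with somatic scaling. With somatic scaling they were 8015 and 13456 at 4 weeks (11170 and 10597), 15202 and 11818 in WT with age (10476 and 18123), 11932 and 4089 in Glis3KO2 with age (7031 and 9251), and with median scaling 7565 and 9453 in the interaction (10943 and 7302).

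Signs turned for values near 0. At 1 week Peg3 ranged from -0.48 to 0.0246 with single arrays left out, the positive value being without Glis3KO2 replicate 3. Cdkn1c was -0.0011 (quantile), -0.0119 (somatic) and -0.0488 (without replicates 1 and 4). Grb10 was -0.0289 (quantile), -0.0092 (somatic), -0.18 (mean of probes), -0.0013 (slide block) and -0.11 (without replicates 1 and 4), and -0.0012 to 0.28 with single arrays left out. At 4 weeks Grb10 was -0.28 (somatic), -0.0314 (mean of probes), and -0.0051 to 0.22 with single arrays left out. The Grb10 interaction was 0.19 (quantile), 0.0113 (normexp), 0.15 (mean of probes), 0.12 (slide block) and 0.23 (without replicates 1 and 4), and ranged from -0.17 to 0.12 with single arrays left out. The Glis3 difference at 1 week was -0.46 with normexp (exact p = 0.143), and -3.42 to -2.77 with an array left out, where the smallest possible p is 0.0571. The causes were not tested.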
